A study of Mus musculus with 6 samples.

Results

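The 6 keratin genes described here, Krt1, Krt2, Krt10, Krt77, Krt78 and Krt80, encode intermediate filament proteins best known from the suprabasal layers of stratified epidermis. They were picked by gene symbol, and all 6 were found among the 46517 genes listed for each library. The libraries came from back skin cells labelled as hair germ stem cells, which were sorted from mice aged 60 postnatal days, 3 days after hair depilation, a plucking that sets resting follicles into growth. RNA was sequenced from 6 sorted samples, 2 in each of 3 groups. WT mice carried Sox9-CreER, a drug-dependent Cre recombinase driven by Sox9, and the R26-lox-stop-lox-YFP reporter. LEF1cKO mice carried both of these and Lef1fl/fl, and LEF1_TCF7dKO mice carried all of these and Tcf7-/-. Cre and the reporter were therefore shared by all groups, and no group without Cre was sequenced. Lef1 is lost only in cells in which Cre has acted, whereas the Tcf7-/- allele is written as lost in the whole animal. The labels give the sex of the samples as mixed and name, as markers of the sort, P-cadherin, Sca-1, CD34, YFP and integrin b1, without saying which were selected for or against. They do not say how many mice stood behind a sample, so a p-value here reports the spread over samples alone. That spread may be technical in WT and LEF1_TCF7dKO. The LEF1cKO libraries differed in the X-inactivation RNA Xist, as given below, and so were not repeats of the same RNA.

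Keratins form filaments as obligate pairs of a type I and a type II protein. Basal keratinocytes use Krt14 with Krt5, and a cell that leaves the basal layer switches to Krt10, a type I keratin, with Krt1, its type II partner. Krt77, Krt2, Krt78 and Krt80 are further type II keratins: Krt2 is a late suprabasal keratin and Krt77 is best known from sweat ducts and, in mouse, from suprabasal epidermis. The hair germ is a cluster of progenitors below the bulge, and its cells are normally described by Cdh3 (P-cadherin), Lgr5 and Lhx2 rather than by suprabasal keratins. LEF1 and TCF7 are DNA-binding partners of beta-catenin in the Wnt pathway, which drives hair germ cells toward hair shaft and root sheath fates. The question behind the 3 groups was what loss of Lef1, alone or together with Tcf7, does to activated hair germ cells.

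In the mouse genome (mm10, GRCm38) the 5 type II genes lie on the minus strand of chromosome 15 and Krt10 lies on the minus strand of chromosome 11. Krt80 (ENSMUSG00000037185) spans chr15:101347444-101370162, at the edge of the type II keratin cluster. Krt2 (ENSMUSG00000064201) spans chr15:101810689-101818169, Krt1 (ENSMUSG00000046834) spans chr15:101845426-101850794 and Krt77 (ENSMUSG00000067594) spans chr15:101858731-101869705, so these 3 genes are direct neighbours. Krt78 (ENSMUSG00000050463) spans chr15:101946001-101954287, and Krt10 (ENSMUSG00000019761) spans chr11:99385254-99389364. The spans come from the GENCODE M21 annotation, and the files list 1 transcript for each gene.

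The promoters of 4 members were found in the RefSeq table for GRCm38.p6 and are shown. All 4 of these genes rose in LEF1_TCF7dKO against WT. Krt10, Krt77 and Krt78 were highest in LEF1_TCF7dKO, and Krt2 was highest in LEF1cKO. Krt1 and Krt80 are named only. Each sequence runs 5′ to 3′ on the gene's strand, from 250 bases before the annotated start to 50 bases after it. Capitals mark matches to the searched motifs, and the windows are chr11:99389315-99389614 for Krt10, chr15:101869656-101869955 for Krt77, chr15:101954238-101954537 for Krt78 and chr15:101818120-101818419 for Krt2.
Krt10: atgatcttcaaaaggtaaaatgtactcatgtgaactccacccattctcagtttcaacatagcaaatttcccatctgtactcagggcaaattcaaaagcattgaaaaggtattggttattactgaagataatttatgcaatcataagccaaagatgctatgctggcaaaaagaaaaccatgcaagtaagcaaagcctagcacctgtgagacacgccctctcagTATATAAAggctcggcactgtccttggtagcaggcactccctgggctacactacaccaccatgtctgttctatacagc
Krt77: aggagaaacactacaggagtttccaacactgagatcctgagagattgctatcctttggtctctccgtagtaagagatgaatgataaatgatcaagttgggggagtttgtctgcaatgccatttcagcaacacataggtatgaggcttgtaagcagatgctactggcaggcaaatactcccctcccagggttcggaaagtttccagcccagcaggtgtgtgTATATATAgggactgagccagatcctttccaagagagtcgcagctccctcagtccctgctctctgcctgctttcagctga
Krt78: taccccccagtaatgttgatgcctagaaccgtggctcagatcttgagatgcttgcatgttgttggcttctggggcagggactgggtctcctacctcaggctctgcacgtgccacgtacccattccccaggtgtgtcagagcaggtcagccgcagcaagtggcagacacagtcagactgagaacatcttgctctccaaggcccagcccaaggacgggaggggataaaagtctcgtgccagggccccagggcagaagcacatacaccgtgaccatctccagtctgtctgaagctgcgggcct
Krt2: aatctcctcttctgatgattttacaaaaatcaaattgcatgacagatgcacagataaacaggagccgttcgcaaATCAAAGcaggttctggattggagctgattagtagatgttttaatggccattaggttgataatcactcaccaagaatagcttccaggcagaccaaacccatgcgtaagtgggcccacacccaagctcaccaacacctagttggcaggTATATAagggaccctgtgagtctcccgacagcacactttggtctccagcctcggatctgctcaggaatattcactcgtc

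The searched motifs were the LEF/TCF core as CTTTGAA with its variant spellings CTTTGAT, also its variant CTTTGTA and its variant CTTTGTT, then the AP-1 site known by the letters TGANTCA, and the TATA box with the letters TATAAA, each on both strands. The letters TATATA were added after these sequences had been read. The Krt2 window held 1 LEF/TCF core, CTTTGAT on the opposite strand (ATCAAAG on the printed strand), with its first base at position -176 from the start. The windows of Krt10, Krt77 and Krt78 held no LEF/TCF core, and none of the 4 windows held the AP-1 letters. Krt10 had TATAAA at -26, overlapping TATATA at -28, Krt2 had TATATA at -29, and Krt77 had overlapping matches to TATATA at -30 and -28. Among 32851 mouse promoter windows of the same length, 16.9% held a LEF/TCF core, 7.81% the AP-1 letters, 13.6% TATAAA and 5.67% TATATA. A match of letters is a description of the sequence and not a measured binding site.

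The libraries held between 40480694 and 63220022 expected counts assigned to genes. The targeted genes were measured first as a check of the labels. Lef1 stood at 21.4 and 20.4 TPM (transcripts scaled by length and by the library's total) in WT, 13.5 and 8.37 TPM in LEF1cKO, and 9.22 and 9.42 TPM in LEF1_TCF7dKO. For Tcf7 the WT libraries gave 26.9 and 36.0 TPM, the LEF1cKO libraries 29.3 and 27.8 TPM, and the LEF1_TCF7dKO libraries 13.7 and 18.0 TPM. Both genes were lower than in WT in both LEF1_TCF7dKO libraries, but transcript from both loci remained, and gene totals do not show whether the deleted exons were read. The drop of Lef1 in LEF1cKO did not pass the test (log2 fold change -0.92 ± 0.25, SE, adjusted p = 0.282), but passed with DESeq2 (adjusted p = 0.0388) and without LEF1cKO replicate 1 (-1.36, adjusted p = 0.0317). The drop of Lef1 in LEF1_TCF7dKO passed with all libraries (-1.27, adjusted p = 0.0122) and no longer passed when any 1 of the WT or LEF1_TCF7dKO libraries was left out (adjusted p from 0.0558 to 0.0827). Of 8 hair germ markers, all were detected in all libraries, and 7 were lower in LEF1_TCF7dKO than in WT, where 19.6% of all genes were lower. The LEF1cKO libraries differed from each other in Xist, the X-inactivation RNA (0.66 and 380.0 TPM), which was between 309 and 370.4 TPM in the other libraries. LEF1cKO replicate 1 thus held almost no Xist, although the samples are labelled as mixed in sex.

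Krt10 and Krt1 were the most abundant members in every library, and both were highest in the LEF1_TCF7dKO cells. Krt10 read 587 and 437 TPM in the WT libraries, 1493 and 1439.95 TPM in the LEF1cKO libraries, and 5916 and 5887 TPM in the LEF1_TCF7dKO libraries. The 3 groups did not overlap: the lower LEF1_TCF7dKO value lay well above the higher LEF1cKO value, which in turn lay above both WT values. Krt10 was 10.5-fold higher in LEF1_TCF7dKO than in WT (log2 fold change 3.39 ± 0.22, SE, edgeR adjusted p = 0.00142) and 3.85-fold higher than in LEF1cKO (1.94 ± 0.20, adjusted p = 0.0107). Between LEF1cKO and WT the log2 fold change was 1.44 ± 0.20, and its adjusted p of 0.0515 missed the threshold of 0.05.

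Krt1, the type II partner, read 367 and 315 TPM in WT, 722 and 807 TPM in LEF1cKO, and 3181 and 2996 TPM in LEF1_TCF7dKO. Its groups stood in the same order as those of Krt10 and did not overlap. Krt1 was 8.22-fold higher in LEF1_TCF7dKO than in WT (log2 fold change 3.04 ± 0.16, adjusted p = 0.00108) and 3.87-fold higher than in LEF1cKO (1.95 ± 0.16, adjusted p = 0.0107). The LEF1cKO to WT log2 fold change of Krt1 was 1.09 ± 0.15 with an adjusted p of 0.0523. Krt1 and Krt10 both passed this comparison in 8 of 11 other ways of processing the data, with values that hardly moved, so their calls lie at the edge of the threshold.

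**Figure D1:**
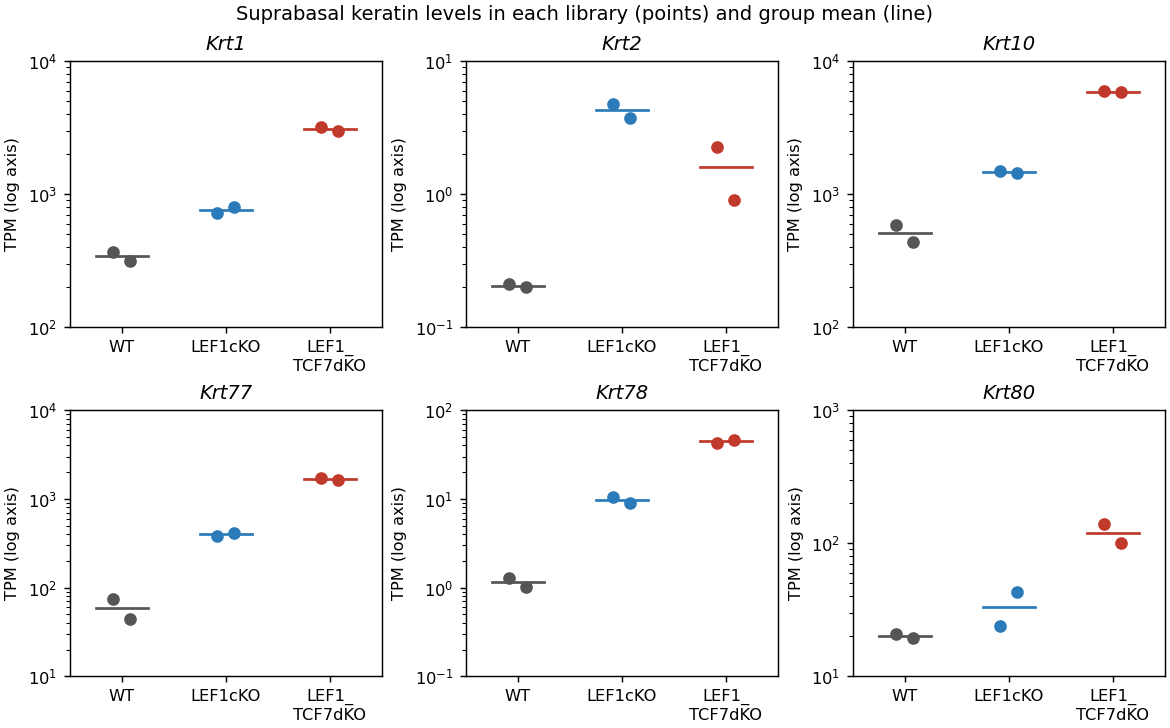
Level of each keratin in each library, in TPM on a log axis that differs between panels; points are single libraries and lines are group means, with 2 libraries in each of WT, LEF1cKO and LEF1_TCF7dKO. Krt1, Krt10, Krt77, Krt78 and Krt80 climb from WT through LEF1cKO to LEF1_TCF7dKO, and Krt2 is highest in LEF1cKO.

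Krt77 and Krt78 had the largest changes in LEF1_TCF7dKO of the 6 keratins. Krt77 read 74.7 and 44.5 TPM in WT, 382 and 418 TPM in LEF1cKO, and 1701 and 1631 TPM in LEF1_TCF7dKO. All LEF1cKO values were above all WT values, and both LEF1_TCF7dKO values were above those in turn. Krt77 rose 6.36-fold in LEF1cKO (log2 fold change 2.67 ± 0.26, adjusted p = 0.0154) and 25.4-fold in LEF1_TCF7dKO (4.67 ± 0.28, adjusted p = 0.00133), both against WT. LEF1_TCF7dKO exceeded LEF1cKO by 2.0 ± 0.25 on the log2 scale (adjusted p = 0.0111). The LEF1cKO call of Krt77 was lost when either LEF1_TCF7dKO library was left out of the shared fit (adjusted p = 0.0641 and 0.0690) and when WT and LEF1cKO were fitted alone (0.0531), although the log2 fold change stayed at 2.67 to 2.68.

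Krt78 was a low-level transcript in WT, at 1.3 and 1.01 TPM, from 146 and 134 counts. It read 10.5 and 9.0 TPM in LEF1cKO, and 42.6 and 46.2 TPM in LEF1_TCF7dKO. The 3 groups were again fully separate. Krt78 rose 8.05-fold in LEF1cKO (log2 fold change 3.01 ± 0.18, adjusted p = 0.0032) and 35.1-fold in LEF1_TCF7dKO (5.13 ± 0.20, adjusted p = 0.000576), the largest fold of the 6 keratins in the double knockout. LEF1_TCF7dKO exceeded LEF1cKO by 2.12 ± 0.17 (adjusted p = 0.0107). Of the 3 members that passed in LEF1cKO, Krt78 was the one that passed under all 17 other settings tried, leaving out each library included.

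Krt2, a keratin of the upper suprabasal layers, was close to absent in WT, at 0.21 and 0.2 TPM from 18 and 20 counts. It read 4.79 and 3.72 TPM in LEF1cKO, from 368 and 312 counts, but 2.28 and 0.9 TPM in LEF1_TCF7dKO, from 140 and 60 counts. Krt2 was thus the single member whose highest group was LEF1cKO, and its groups did not overlap. Krt2 rose 19.7-fold in LEF1cKO (log2 fold change 4.30 ± 0.52, adjusted p = 0.0308) and 6.96-fold in LEF1_TCF7dKO (2.80 ± 0.50, adjusted p = 0.00912) against WT. The difference between the knockouts was -1.50 ± 0.45 on the log2 scale, or 2.83-fold lower in LEF1_TCF7dKO, with an adjusted p of 0.0555 that missed the threshold. The LEF1cKO call was lost without any 1 of the WT or LEF1cKO libraries (adjusted p from 0.0640 to 0.188), and the LEF1_TCF7dKO call without either WT library (0.0530 and 0.0619). With limma on log2(TPM + 1), a scale that understates changes of low genes, the values were 2.12 in LEF1cKO (adjusted p = 0.0507) and 1.05 in LEF1_TCF7dKO (adjusted p = 0.0381).

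Krt80, which is also expressed outside the epidermis, had the smallest fold changes of the 6 against WT. It read 20.65 and 19.3 TPM in WT, 24.0 and 42.9 TPM in LEF1cKO, and 140.3 and 99.7 TPM in LEF1_TCF7dKO. The LEF1cKO libraries differed from each other, and the lower one lay close above WT. The log2 fold change in LEF1cKO was 0.66 ± 0.26 (adjusted p = 0.506). In LEF1_TCF7dKO, Krt80 was 5.45-fold higher than in WT (2.45 ± 0.28, adjusted p = 0.00375) and 3.45-fold higher than in LEF1cKO (1.79 ± 0.27, adjusted p = 0.0126).

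Counted together, 3 of the 6 keratins rose in LEF1cKO against WT (Krt2, Krt77 and Krt78), where 0.224% of the 19640 genes tested rose and 0.601% changed in either direction. All 6 rose in LEF1_TCF7dKO against WT, where 18.0% of genes rose and 37.6% changed, and 5 rose in LEF1_TCF7dKO against LEF1cKO, where 11.2% of genes rose and 25.2% changed. Krt2, Krt77 and Krt78 rose in both knockouts against WT, as did 0.219% of all genes. The median log2 fold change of the 6 was 2.06, 3.21 and 1.95 in these comparisons, against medians of all genes of 0.01 in each. In TPM, all 6 were higher without overlap in LEF1cKO and in LEF1_TCF7dKO than in WT, which held for 28.3% and 43.4% of genes. Between the knockouts 5 were higher in LEF1_TCF7dKO without overlap (35.0% of genes) and Krt2 was lower (29.4% of genes). For 5 of the 6 the TPM of WT, LEF1cKO and LEF1_TCF7dKO rose in that order with no overlap, which held for 11.9% of all genes tested. These comparisons share libraries, so they are not independent of one another. In the comparison of the knockouts, no keratin passed without LEF1_TCF7dKO replicate 1 (adjusted p from 0.0777 to 0.0792 for the 5), a fit in which 1 gene of all those tested passed.

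**Figure D2:**
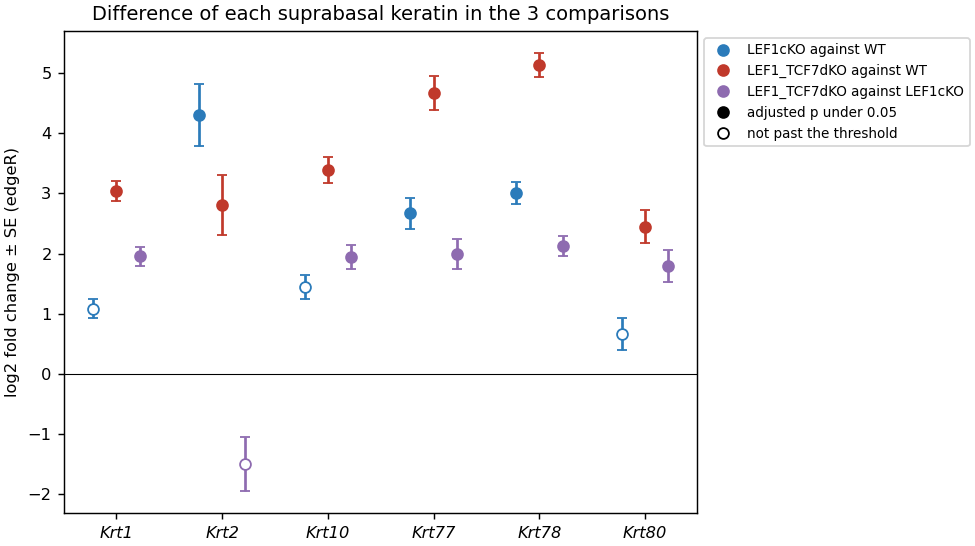
Log2 fold changes of the 6 keratins in the 3 comparisons, from the edgeR fit over all 6 libraries; points are estimates, bars are 1 SE, and filled points passed an adjusted p of 0.05. All 6 points are filled for LEF1_TCF7dKO against WT, 3 are filled for LEF1cKO against WT, and Krt2 alone lies below 0 for LEF1_TCF7dKO against LEF1cKO.

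The order of the levels was the same in every library: Krt10 was highest, followed by Krt1, Krt77, Krt80, Krt78 and Krt2. The levels are comparable between genes because TPM is scaled by transcript length. Among all genes of a library ordered by TPM, Krt10 moved from ranks 240 and 311 in WT to 104 and 103 in LEF1cKO and 16 and 12 in LEF1_TCF7dKO. Krt77 moved from 2107 and 3658 in WT to 328 and 310 in LEF1cKO and 70 and 86 in LEF1_TCF7dKO. The 6 keratins together made up a larger part of the keratin message in the knockouts than in WT. Their summed TPM was 1051 and 816 for WT, 2636 and 2720.5 for LEF1cKO, and 10984 and 10662 for LEF1_TCF7dKO. As a share of the TPM of 51 keratin genes, this was 7.64% and 5.91% for WT, 19.9% and 15.7% for LEF1cKO, and 37.7% and 32.5% for LEF1_TCF7dKO. As a share of all message it was 0.105% and 0.0816% in WT and 1.10% and 1.07% in LEF1_TCF7dKO. The samples are bulk RNA, so a larger share of cells with these transcripts and more transcript per cell cannot be told apart.

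**Figure D3:**
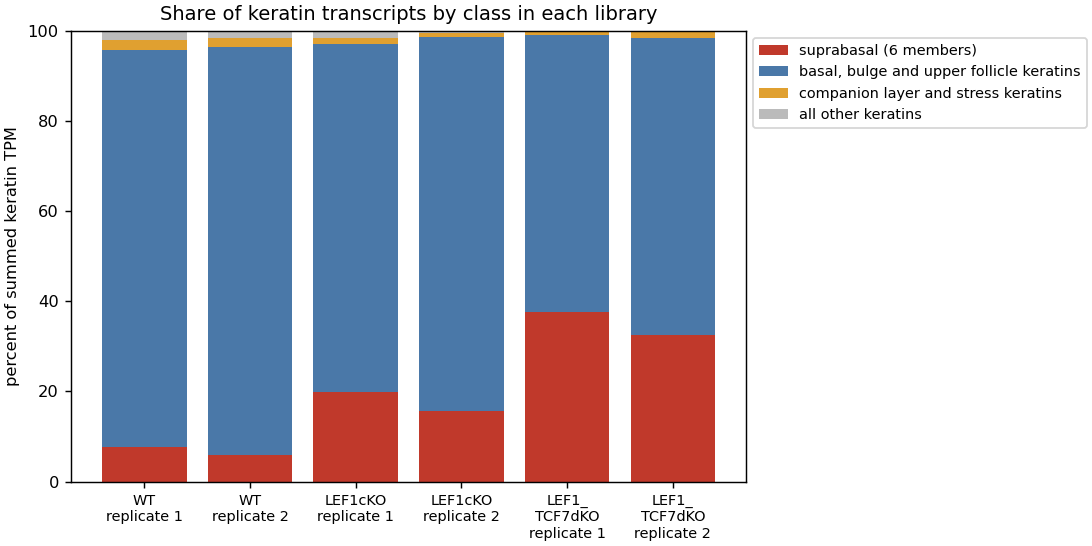
Share of the summed TPM of 51 keratin genes taken by each class of keratins in each library, in percent, stacked to the whole. The 6 suprabasal keratins take 5.91% to 7.64% in WT and 32.5% to 37.7% in LEF1_TCF7dKO, while the share of the basal, bulge and upper follicle keratins goes from 88.3% and 90.5% to 61.4% and 66.0%. Only the share of that class falls: its summed TPM is 12140 and 12512 in WT and 17917 and 21675 in LEF1_TCF7dKO.

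The balance between type I and type II members stayed within a narrow range. The 5 type II members summed to 0.791 and 0.869 of the Krt10 level in WT, 0.765 and 0.889 of it in LEF1cKO, and 0.857 and 0.811 in LEF1_TCF7dKO, so the groups overlapped. Krt1 alone went from 0.626 and 0.720 of Krt10 in WT to 0.483 and 0.560 in LEF1cKO and 0.538 and 0.509 in LEF1_TCF7dKO. Both knockouts therefore lay below WT in this ratio and overlapped each other. The ratio of Krt77 to Krt1 moved the other way, from 0.203 and 0.142 in WT to 0.529 and 0.518 in LEF1cKO and 0.535 and 0.544 in LEF1_TCF7dKO. Both knockouts lay above WT, and LEF1cKO stood close to LEF1_TCF7dKO in this ratio while its Krt1 level was far lower. Krt78 stood at 0.00354 and 0.00321 of Krt1 in WT, 0.0145 and 0.0112 of it in LEF1cKO, and 0.0134 and 0.0154 in LEF1_TCF7dKO, with the knockouts overlapping. Krt2 stood at 0.00664 and 0.00461 of Krt1 in LEF1cKO, above the 0.000717 and 0.0003 of LEF1_TCF7dKO and the 0.000572 and 0.000636 of WT. These ratios are given by library without a test, since an exact permutation test of 2 libraries against 2 cannot give a two-sided p below 0.333.

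**Figure D4:**
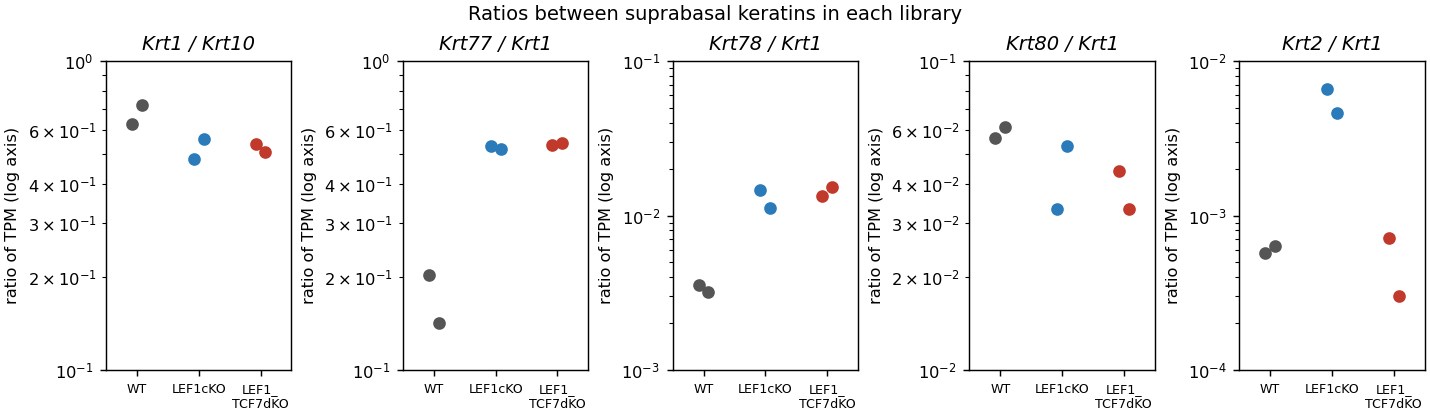
Ratios of TPM within each library on log axes, with 1 point for each of the 2 libraries of a group. Krt77 to Krt1 rises from 0.142 and 0.203 in WT to between 0.518 and 0.544 in the knockouts, and Krt2 to Krt1 is highest in LEF1cKO.

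Set against the basal pair, the suprabasal pair stood higher in both knockouts. Krt10 was 0.172 and 0.122 of Krt14 in WT, 0.542 and 0.337 of it in LEF1cKO, and 0.883 and 0.704 in LEF1_TCF7dKO. Krt1 was 0.0744 and 0.0613 of Krt5 in WT, 0.148 and 0.135 of it in LEF1cKO, and 0.488 and 0.363 in LEF1_TCF7dKO. Neither ratio overlapped between any of the groups. Krt14 itself read 3410.0 and 3578 TPM in WT, 2757 and 4271 TPM in LEF1cKO, and 6699 and 8368 TPM in LEF1_TCF7dKO. It rose in LEF1_TCF7dKO against WT (log2 fold change 1.02 ± 0.25, adjusted p = 0.0231), a call lost without any 1 of the WT or LEF1_TCF7dKO libraries (adjusted p from 0.0548 to 0.116).

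Keratin genes next to the members in the genome followed mixed courses. Krt73, an inner root sheath keratin that lies 8342 bases from Krt2, read 6.22 and 6.81 TPM in WT, 5.39 and 2.39 TPM in LEF1cKO, and 0.18 and 0.36 TPM in LEF1_TCF7dKO. It fell by 4.70 on the log2 scale in LEF1_TCF7dKO against WT (adjusted p = 0.00421), whereas Krt2, Krt1 and Krt77 beside it rose. Krt76, next to Krt77 and known from oral epithelium, was at 0 to 0.03 TPM and was not tested. Krt79, an upper follicle keratin 5676 bases from Krt78, read 688 and 622 TPM in WT, 191 and 645 TPM in LEF1cKO, and 1727 and 963 TPM in LEF1_TCF7dKO, and did not pass against WT (0.89, adjusted p = 0.232). Beside Krt10 on chromosome 11, Krt28, another root sheath keratin, fell by 5.42 on the log2 scale in LEF1_TCF7dKO (adjusted p = 0.00408). Krt12, the neighbour on the other side and known from the cornea, rose from 0 and 0.02 TPM in WT to 0.56 and 0.57 TPM in LEF1_TCF7dKO (adjusted p = 0.00553), from 0 and 1 counts to 24 and 26 counts, a very low level beside that of Krt10. Krt7, next to Krt80, and Krt8, next to Krt78, did not pass in any comparison (log2 fold changes of 0.85 and -0.19 in LEF1_TCF7dKO against WT).

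**Figure D5:**
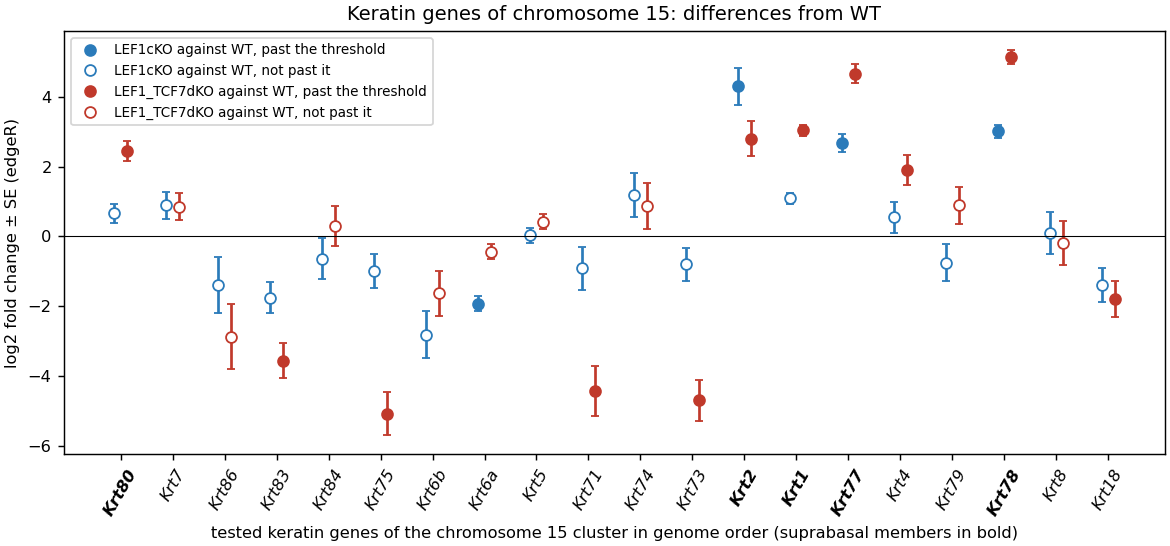
Log2 fold changes against WT of the keratin genes of chromosome 15 that were tested, in genome order, for LEF1cKO and LEF1_TCF7dKO; bars are 1 SE. Krt2, Krt1, Krt77, Krt78 and Krt80 lie above 0 in both, and Krt73, the neighbour of Krt2, lies at -4.70 in LEF1_TCF7dKO; Krt81, at 0 in all knockout libraries, is not drawn.

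Other keratin classes were read from lists of related genes. Of 8 basal, bulge and upper follicle keratins, 4 rose and 1 fell in LEF1_TCF7dKO against WT, where 18.0% of all genes rose. Their median log2 fold change was 0.96 there and -0.02 in LEF1cKO against WT. None passed in LEF1cKO, where 0.601% of all genes changed. The 14 inner root sheath and hair shaft keratins tested had a median log2 fold change of -0.86 in LEF1cKO against WT. None of the 14 passed there, where 0.601% of all genes changed. In LEF1_TCF7dKO against WT, 8 of the 14 fell and 1 rose, with a median of -3.47. Of all genes, 19.6% fell and 18.0% rose in that comparison. Krt28, Krt73, Krt83 (a hair cortex keratin, -3.56) and Krt27 (-3.37) were among those that fell, and Krt32, a hair cuticle keratin, was the one that rose (2.01). Of 4 companion layer and stress keratins, Krt75 alone passed in LEF1_TCF7dKO against WT, where it fell by 5.08 on the log2 scale. Of all genes, 37.6% changed in this comparison, so 1 of 4 is no result about the class. Krt6a was lower in LEF1cKO by 1.93 on the log2 scale (adjusted p = 0.0236), a call that was kept without LEF1cKO replicate 2 and lost without any other library (adjusted p from 0.0540 to 0.110). The suprabasal keratins and most of the root sheath and hair shaft keratins that changed thus differed from WT in opposite directions in LEF1_TCF7dKO.

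Genes of spinous and granular keratinocytes, which surround the keratin network with desmosomes, envelope proteins and lipids, were also higher in LEF1_TCF7dKO. Of 30 such genes, 22 rose and none fell against WT, where 18.0% of all genes rose, with a median log2 fold change of 1.90 (0.01 over all genes). Ppl, which encodes periplakin of the cornified envelope, read 22.2 and 22.9 TPM in WT, 41.0 and 51.0 TPM in LEF1cKO, and 134 and 143 TPM in LEF1_TCF7dKO (2.48 ± 0.12 against WT, adjusted p = 0.000874). The secreted epidermal proteins Sbsn (2.36), Dmkn (2.0) and Krtdap (1.85) rose as well. In LEF1cKO against WT, 1 of the 30 passed, Ppl (0.95 ± 0.12, adjusted p = 0.0351), with a median of 0.71, where 0.224% of all genes rose. That call was lost under the replicate block (adjusted p = 0.0718), in a fit of only these groups, and without any library other than LEF1cKO replicate 1. The count in LEF1cKO was 9 with no filter on low counts and 11 with DESeq2, settings in which 422 and 602 of all genes passed. Between the knockouts, 17 of the 30 were higher in LEF1_TCF7dKO and none lower, where 11.2% of all genes were higher. These calls were lost without LEF1_TCF7dKO replicate 1, as were nearly all calls over all genes.

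Regulators of suprabasal commitment moved less than the keratins. None of 23 such genes passed in LEF1cKO against WT (median log2 fold change 0.10), where 0.601% of all genes changed. In LEF1_TCF7dKO against WT, 10 of the 23 rose and 1 fell, with a median of 0.17. Of all genes, 18.0% rose and 37.6% changed in that comparison. Maf (0.86 ± 0.09) and Klf4 (1.21 ± 0.14), transcription factors of epidermal differentiation, rose, as did Zfp750 (1.46 ± 0.17), which encodes a factor needed for late differentiation, and the Notch receptor gene Notch2 (1.27 ± 0.17). Trp63, the epidermal lineage factor, read 262 and 255 TPM in WT and 281 and 339 TPM in LEF1_TCF7dKO and did not pass (0.17, adjusted p = 0.446). The single gene that fell was Prdm1, which encodes BLIMP1 (-0.67, adjusted p = 0.0101). The count of 11 changed genes was lower without WT replicate 1, WT replicate 2 or LEF1_TCF7dKO replicate 1, as was the count over all genes.

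Markers of immune cells, fibroblasts and endothelial cells were higher in the LEF1_TCF7dKO libraries, as the keratins were, and those of melanocytes were not. The summed TPM of 9 immune cell markers lay at 38.0 to 106 in WT, 184 to 291 in LEF1cKO and 752 to 801 in LEF1_TCF7dKO. In LEF1_TCF7dKO against WT, 7 of the 9 rose, where 18.0% of all genes tested rose, a share that applies to the next counts too. The sum of 5 fibroblast markers lay at 67.0 to 179.85 in WT, 297 to 714 in LEF1cKO and 1275 to 1598 in LEF1_TCF7dKO, where all 5 rose. None of these markers passed in LEF1cKO against WT, where 0.224% of all genes rose. Their median log2 fold changes there were 1.60 for immune cells and 1.67 for fibroblasts. Both sums rose from WT through LEF1cKO to LEF1_TCF7dKO with no overlap of the 3 groups, as 5 of the 6 keratins did. The sum of 4 endothelial markers went from 5.07 to 5.88 in WT to 14.8 to 62.8 in LEF1_TCF7dKO, where all 4 rose. The sum of 5 melanocyte markers lay at 398 to 585 TPM in WT, 248 to 376 TPM in LEF1cKO and 266 to 492 TPM in LEF1_TCF7dKO, and none of the 5 passed against WT (median log2 fold changes of -0.71 and -0.51).

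Among skin epithelial cells, markers of the basal interfollicular epidermis and infundibulum summed to 8703 to 9111 TPM in WT, 8168 to 10607 TPM in LEF1cKO and 13954 to 17229 TPM in LEF1_TCF7dKO, with 3 of 5 higher in LEF1_TCF7dKO than in WT, where 18.0% of all genes were higher. The 6 bulge markers summed to 331 to 362 TPM in WT, 133 to 439.7 TPM in LEF1cKO and 461 to 741 TPM in LEF1_TCF7dKO, with 3 of the 5 tested higher. The sums of 6 upper follicle markers were 1216 to 1382, 632 to 1429 and 2287 to 2936 TPM in the same order of groups, with 1 of 6 higher. Those of 6 sebaceous gland markers were 281 to 331, 194 to 664 and 690.4 to 1833 TPM, with 1 of 6 higher, and both of these counts are near the share over all genes. The 8 hair germ markers went the other way, from 1159.88 to 1205 TPM in WT and 1287 to 1320.4 TPM in LEF1cKO to 548 to 833 TPM in LEF1_TCF7dKO. None of the markers in these lists was at 0 in any group. Of the genes encoding the sort markers, Ly6a (Sca-1) read 26.5 and 14.7 TPM in WT, 21.8 and 45.9 TPM in LEF1cKO, and 111 and 97.3 TPM in LEF1_TCF7dKO, and Ly6a was higher in LEF1_TCF7dKO against WT (2.22, adjusted p = 0.00968). Cd34 read 13.5 and 8.72 TPM in WT, 11.3 and 17.8 TPM in LEF1cKO, and 42.0 and 30.9 TPM in LEF1_TCF7dKO, and was higher there too (1.54, adjusted p = 0.00954). Both calls were lost without WT replicate 2 or LEF1_TCF7dKO replicate 1 (adjusted p from 0.0535 to 0.0588). Itgb1 did not pass, and Cdh3 was lower in LEF1_TCF7dKO (-0.93, adjusted p = 0.0109), a call lost without either WT library or LEF1_TCF7dKO replicate 1 (highest adjusted p 0.0658). The part of these cell types and of the sort in the keratin levels was not tested.

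Overlapping genes bear on Krt10 and Krt80. In the GENCODE M21 transcripts, 2.44% of the 50-base windows of Krt10 also occur in the antisense gene Gm11940, and 5% of those of Krt80 occur in the antisense gene Gm35853, while the other members share none with another gene. The M21 transcript of Krt80 has 3067 bases and the one listed in the files 1774, so the share for Krt80 may not hold for the transcript counted. Gm11940 read 1.76 and 1.72 TPM in WT, 2.47 and 3.18 TPM in LEF1cKO, and 16.5 and 11.4 TPM in LEF1_TCF7dKO, far below Krt10. The sources used here do not say that strand was used in counting, so reads from the windows these antisense pairs share may not have been told apart.

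Across the 6 libraries the members other than Krt2 followed one another. On log2(TPM + 1) values the Pearson r of their 10 pairs ranged from 0.911 to 0.995, and that of the 5 pairs with Krt2 from 0.246 to 0.545. The 6 points fall into 3 genotype groups, so r mainly reports the order of the groups. Of 10440 other genes with a mean of at least 5 TPM, the 8 closest to the mean course of the keratins included Hgsnat, Pigm, Pf4, Gdpd2, Igfbp3, Serpinb7 and Rpp38, with r from 0.994 to 0.997. The 8 were picked for following the mean of all 6 keratins, Krt2 included, so their order of groups is no separate result. Rpp38 passed in no comparison (lowest edgeR adjusted p 0.254). Igfbp3, which encodes a secreted binder of insulin-like growth factors, read 9.36 and 8.54 TPM in WT, 51.5 and 77 TPM in LEF1cKO, and 274 and 278 TPM in LEF1_TCF7dKO. Gdpd2, a phosphodiesterase gene, read 3.03 and 1.71 TPM in WT, 11.9 and 14.8 TPM in LEF1cKO, and 64.3 and 55.7 TPM in LEF1_TCF7dKO. Both rose in LEF1cKO and in LEF1_TCF7dKO against WT, like Krt77 and Krt78, although Gdpd2 lost its LEF1cKO call without either LEF1_TCF7dKO library (highest adjusted p 0.0717). Serpinb7, a serine protease inhibitor gene expressed in epidermis, read 1.37 and 0.66 TPM in WT, 6.0 and 5.52 TPM in LEF1cKO, and 20.9 and 19.3 TPM in LEF1_TCF7dKO. The lysosomal enzyme gene Hgsnat had the same order with a small change, at a log2 fold change of 0.70 in LEF1_TCF7dKO against WT, a call lost without WT replicate 2 (adjusted p = 0.0672).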

How the data were processed

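RNA-seq gene tables of 6 libraries were used, 1 for each sorted sample. Per the submitters' processing notes, Bowtie2 2.2.9, RSEM 1.2.30 and the mm10 build were used; which annotation they used is not given in the sources at hand. The authors deposited RSEM expected counts, TPM, FPKM and transcript lengths for 46609 rows, of which 92 spike-in rows without counts were left out. FPKM entered no test. After rounding, the expected counts were tested with edgeR 4.0.16 (R 4.3.3): TMM factors, filterByExpr by group (19640 genes kept), a quasi-likelihood fit over all 6 libraries with 3 residual degrees of freedom, and Benjamini-Hochberg adjustment over all genes at 0.05. SE is the log2 fold change divided by the square root of F. All 6 keratins passed the filter on low counts. Levels are the deposited TPM by library. The floor of 3 counts equals 0.0475 to 0.0741 CPM at these depths and covers counting error only.

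The members, gene lists and motifs were chosen with earlier results of these data known. Named genes are the 6 keratins, the targeted and sort genes, up to 4 per list with the smallest p (or the 2 highest where none passed), the neighbouring keratins and the 8 genes most like the members by Pearson r, of which 1 is not reported here. Alternatives were other scalings and filters, DESeq2 1.42.0, limma 3.58.1, a length offset, a fit of 2 groups, a replicate block and leaving out each library. Replicates of a group differed by more than sampling noise.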

Additional observations from a re-analysis of the deposited data

How the results depend on the processing

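No value of the 6 keratins changed sign under any alternative: of 303 values, 267 kept their side of the threshold, 15 lost the call and 21 gained it. The count of keratins that passed in LEF1cKO against WT was 3, and 5 with library size only, with no filter, with DESeq2, with limma voom, with limma on log2(TPM + 0.1) and with an effective length offset, where Krt1 and Krt10 were added; it was 2 in a fit of only these groups and in each fit without 1 library. The count of all genes there was 118, against 422 with no filter and 602 with DESeq2, and ranged from 78 to 138 without 1 library. In LEF1_TCF7dKO against WT, leaving out 1 library gave 5 to 6 keratins and 1968 to 8333 of all genes (7389 with every library). In LEF1_TCF7dKO against LEF1cKO it gave 0 to 5 keratins and 1 to 5973 of all genes, and a fit of only these groups gave 2585 (4952 with all groups). The lowest counts there came without LEF1_TCF7dKO replicate 1; the cause was not tested. Krt2 in this comparison passed with no filter (adjusted p = 0.0206), DESeq2 (0.00883), limma voom (0.0350) and limma on log2(TPM + 1) (0.0474). The filter of 10 CPM in 2 libraries removed Krt2.

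Replicate numbers were taken only as names of the samples. The correlation of same-numbered deviations was -0.0421, 0.0558 and -0.0276, which with 2 libraries in each group cannot exclude a pairing. With the replicate number as a block, 3, 6 and 6 keratins and 80, 6435 and 3635 of all genes passed in the comparisons LEF1cKO to WT, LEF1_TCF7dKO to WT and LEF1_TCF7dKO to LEF1cKO, and Krt2 gained the call in the last (-1.58, adjusted p = 0.0430).

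Values near 0 changed sign in a few other genes in LEF1cKO against WT. Itgb1 went from -0.07 to 0.00930 with limma on log2(TPM + 1) and 0.00935 on log2(TPM + 0.1). Without 1 library, Itgb1 ranged from -0.165 to 0.0161, Krt14 from -0.36 to 0.19 (-0.06 with every library), Krt5 from -0.0793 to 0.123 (0.03) and Trp63 from -0.0230 to 0.228 (0.11). Lef1 between the knockouts ranged from -0.707 to 0.0891 (-0.36), the highest value without LEF1cKO replicate 1. The median of all genes moved by over 0.1 only with limma on log2(TPM + 0.1) in LEF1_TCF7dKO against WT, to 0.13. Depth limits Krt2 most, at 18 and 20 counts in WT.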
